A study of Mus musculus with 4 samples.

Results

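The stromal and peritubular marker genes are 10 genes of the supporting connective tissue and contractile cells of the testis, and all 10 were measured here, by 23 of the 45101 probe sets on the array. Their probe sets were taken by symbol: every probe set that the array annotation assigns to 1 of the 10 genes alone. The genes themselves were chosen with earlier results of these data known. They comprise the mesenchymal transcription factors Tcf21 and Foxf1, the growth factor gene Igf1, the growth factor receptor genes Pdgfra and Pdgfrb, the matrix genes Dpt, Col1a1 and Col3a1, and the contractile genes Acta2 and Myh11. The samples were gonocytes, the male germ cells of the newborn testis, isolated from mice at 2 days post partum on magnetic beads through THY1, a protein of the cell surface. They were kept for 8 h without serum, growth factors or feeder cells, with either 100 nM retinoic acid (RA), the form of vitamin A that activates the retinoic acid receptors, or ethanol as vehicle. RNA of 2 RA samples and 2 vehicle samples was hybridised to 1 Affymetrix array each, and the labels number the samples 2 and 1 within each group. No label states whether animals or cultures were separate, and the p-values therefore reflect the spread of these 4 samples alone, possibly a technical one. The labels give no strain, and do not say what the numbers stand for.

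In the testis, seminiferous tubules that hold germ and Sertoli cells are wrapped in flattened peritubular myoid cells, which contract through smooth muscle actin and myosin. Between the tubules lies an interstitium of fibroblast-like stromal cells, Leydig cells, vessels and immune cells, where fibrillar collagens are deposited and where signalling through the platelet-derived growth factor (PDGF) receptors supports the stromal and Leydig lineages. THY1 is found on germline stem cells but is also well known on fibroblasts.

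The regulatory sequence just upstream of 4 members is shown for reference, those of 3 genes with lower signals on both RA arrays and that of Acta2. It is the 250 bases before the transcription start that RefSeq's promoter table (build GRCm38.p6, 6 of the 10 members listed) uses for each gene, 5′ to 3′ on the gene's strand. The windows lie at chr1:164796413-164796662 (plus strand) for Dpt, chr10:87860861-87861110 (plus) for Igf1, chr10:22820144-22820393 (minus) for Tcf21 and chr19:34255374-34255623 (minus) for Acta2. Capitals mark AGGTCA, the core site that retinoic acid receptors are known to bind in pairs, and the pattern CC, then 6 bases of which at most 1 is other than A or T, then GG, a relaxed form of the CArG box that serum response factor binds in contractile genes.
Dpt: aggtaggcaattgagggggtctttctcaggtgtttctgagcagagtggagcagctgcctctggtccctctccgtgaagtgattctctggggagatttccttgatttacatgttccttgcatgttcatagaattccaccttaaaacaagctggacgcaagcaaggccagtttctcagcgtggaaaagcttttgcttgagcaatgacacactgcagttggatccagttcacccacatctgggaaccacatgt
Igf1: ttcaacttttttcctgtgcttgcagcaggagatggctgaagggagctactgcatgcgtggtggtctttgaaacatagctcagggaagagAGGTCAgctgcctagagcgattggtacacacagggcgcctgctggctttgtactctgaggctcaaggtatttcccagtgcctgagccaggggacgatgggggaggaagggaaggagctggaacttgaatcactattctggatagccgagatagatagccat
Tcf21: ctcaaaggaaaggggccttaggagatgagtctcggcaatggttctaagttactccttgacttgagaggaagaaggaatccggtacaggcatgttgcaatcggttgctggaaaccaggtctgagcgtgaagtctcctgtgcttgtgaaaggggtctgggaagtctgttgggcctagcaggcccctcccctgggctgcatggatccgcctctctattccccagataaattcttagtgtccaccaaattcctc
Acta2: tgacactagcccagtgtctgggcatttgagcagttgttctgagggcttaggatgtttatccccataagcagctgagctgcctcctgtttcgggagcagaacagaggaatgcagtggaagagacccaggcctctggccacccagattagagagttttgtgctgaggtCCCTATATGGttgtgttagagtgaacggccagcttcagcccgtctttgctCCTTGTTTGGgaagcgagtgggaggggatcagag
AGGTCA was found once, in the Igf1 window, and 14% of the 32851 windows of this length in the table hold it on either strand. The direct repeat of AGGTCA with 5 bases between was in none of the 6 member windows and in 3 windows of the table. The relaxed CArG pattern was found 2 times, both in the Acta2 window, starting 84 and 34 bases before the start, and 8.59% of all windows hold it, while the strict CArG box (1.47% of windows) was in none of the 6. No match says only that these letters are not in these windows. The motifs overlapped nowhere.

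The deposited value is 1 intensity per probe set and array, called the signal here, on a linear scale. Differences were taken on log2(signal + 5) and tested across 27022 probe sets that passed a filter on low signal, with limma and Benjamini-Hochberg adjustment. Of the 23 member probe sets 20 passed, and in these the mean of every group compared was 18.6 or more, above the 15.5 that the filter corresponds to, so none passed through 1 group alone. The 3 that did not pass were 1 further probe set each of Tcf21 (signals 10.2 to 24.2), Foxf1 (6.5 to 16.8) and Acta2 (8.09 to 11.4). Trimmed array means were the same on all 4 arrays, and with so few arrays every value is imprecise. Known RA target genes were read as a check of the treatment. Stra6, a retinol transporter, had signals of 228 and 175 on RA arrays 2 and 1, against 29.5 and 44.6 on vehicle arrays 2 and 1, and Rarb, an RA receptor, 90.5 and 95.4 with RA, against 6.56 and 14.9 with vehicle. Stra8 (783 to 1477 with RA, 53.3 to 188 with vehicle) and Cyp26a1 (164 to 375 with RA, 19.9 to 30.9 with vehicle) were likewise apart. Each was higher on both RA arrays, yet none passed the adjustment (limma, adjusted p = 0.209 to 0.391 over the 5 genes of this list).

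With RA, 4 of the 10 genes had lower signals on both RA arrays than on both vehicle arrays: Dpt, Foxf1, Igf1 and Tcf21. Their brightest probe sets were 2.34-fold, 2.07-fold, 1.71-fold and 1.38-fold lower. The fibrillar collagen genes Col1a1 and Col3a1 and the contractile genes Acta2 and Myh11 lay between 1.02-fold lower and 1.21-fold higher with overlapping groups. Pdgfra was the 1 gene higher on both RA arrays. Which genes were apart depended on the scaling. With quantile normalization Dpt, Foxf1, Pdgfrb and Col3a1 were lower on both RA arrays and Acta2 was higher, while Igf1, Tcf21 and Pdgfra overlapped, and with equal array medians the genes were those of the deposited scale. None of these differences passed adjustment over all probe sets (limma, adjusted p = 1 for every member), and an exact two-sided permutation test of 2 arrays against 2 cannot give a p below 0.333. With the replicate number as a block, 5 of the 20 member probe sets tested were called lower, beside 322 of 27022 probe sets. They belonged to Dpt, Foxf1 and Igf1, but no label shows that the numbers pair the samples. Among all 13011 genes read from their brightest probe set, 12.6% were lower on both RA arrays and 14.1% were higher. At an unadjusted p under 0.05 there were 2 members, Dpt and Foxf1, both lower, where 1.30% of all genes were lower and 1.41% higher at that level. Because the members were chosen with earlier results of these data known, counts above these shares are description and no test. Over probe sets, 0 of 27022 passed the adjustment, 0% of those tested.

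**Figure D1:**
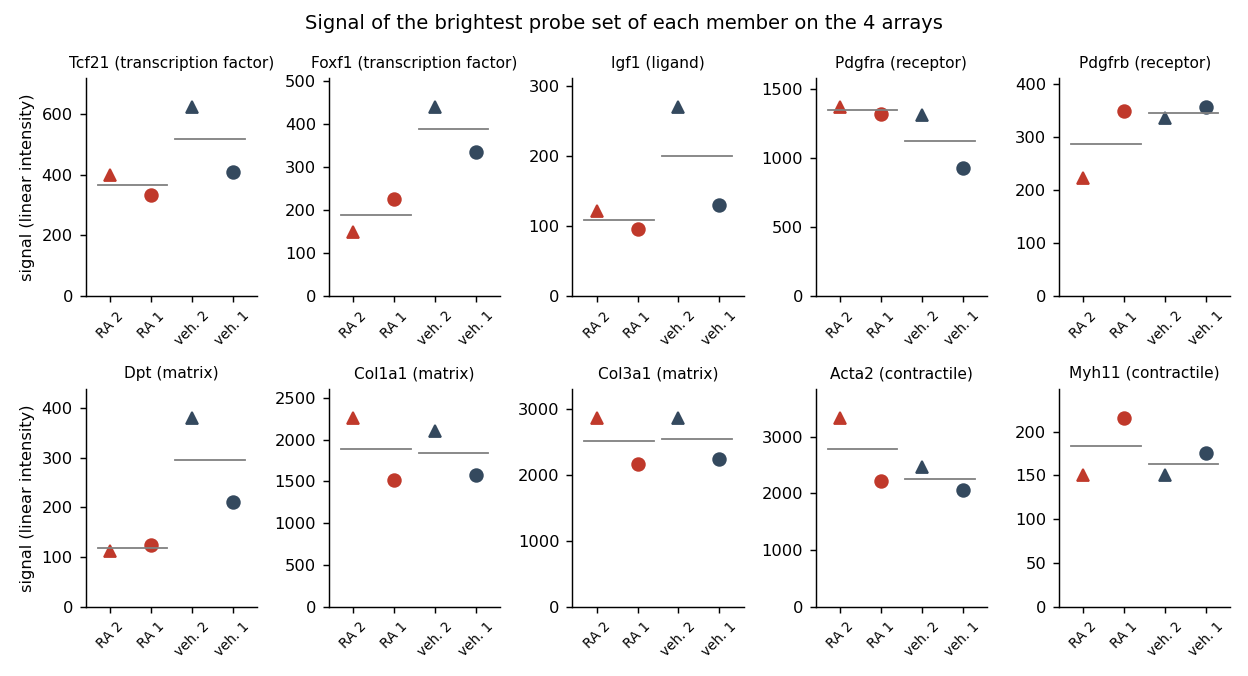
Signal (linear intensity, axis from 0) of the brightest probe set of each member on the 4 arrays; red is RA and dark blue vehicle, triangles are arrays numbered 2, circles those numbered 1, and grey lines are group means. The RA points of Tcf21, Foxf1, Igf1 and Dpt lie below both vehicle points, and vehicle array 2 is the highest in each of these 4 panels.

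Both mesenchymal transcription factors had lower signals on both RA arrays on the deposited scale. Foxf1, a forkhead factor of visceral and interstitial mesenchyme, had signals of 150 and 225 on RA arrays 2 and 1, against 440 and 336 on vehicle arrays 2 and 1. The groups did not overlap, and the difference was a log2 change of -1.05 ± 0.26 (SE, n = 2 per group; limma, adjusted p = 1, unadjusted p = 0.00378). Tcf21, a basic helix-loop-helix factor of interstitial progenitors, had 398 and 333 on RA arrays 2 and 1, against 623 and 410 on vehicle arrays 2 and 1. Its groups were apart by less than the spread within either of them, with a log2 change of -0.47 ± 0.25 (limma, unadjusted p = 0.0947). With quantile normalization the groups of Tcf21 overlapped. In bulk samples such as these, fewer cells of a type and less RNA per cell cannot be told apart.

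Igf1, a secreted growth factor made by stromal and other cells, was read by 4 probe sets. The brightest had signals of 121 and 95.1 on RA arrays 2 and 1, against 270 and 130 on vehicle arrays 2 and 1, a log2 change of -0.78 ± 0.35. A further pair gave -0.87 ± 0.34, with 96.4 and 101 against 266 and 127, and -0.96 ± 0.40, with 26.7 and 25.7 against 83.7 and 36.4. In all 3 the groups were apart, and vehicle array 2 stood well above the other arrays. The fourth had 83.8 and 70 with RA, against 177 and 60.9 with vehicle. Here RA lay between the vehicle arrays, and the log2 change was -0.42 ± 0.45. Without vehicle replicate 2, the log2 change of the brightest probe set was -0.26, and without vehicle replicate 1 it was -1.29.

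The PDGF receptor genes showed no difference that passed the test. Pdgfra, the receptor of interstitial and Leydig progenitors, had 1371 and 1318 on RA arrays 2 and 1, against 1314 and 927 on vehicle arrays 2 and 1. The groups were apart by a small margin, set by vehicle array 2, and the log2 change was 0.28 ± 0.24. The other probe sets of Pdgfra gave 0.53 ± 0.28, with groups apart (104 and 81.4 against 70.5 and 55.2), and 0.38 ± 0.34, with groups that overlapped (93.6 and 52 against 60.8 and 45.3). Pdgfrb, the receptor of pericytes and myoid cells, had 223 and 349 with RA, against 335 and 357 with vehicle, a log2 change of -0.30 ± 0.25 that rested on RA array 2. Its second probe set lay within 189 to 204 on all 4 arrays (-0.018 ± 0.20). Without RA replicate 2, the brightest probe set of Pdgfrb gave 0.015.

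Of the matrix genes, Dpt stood apart from the fibrillar collagens. Dpt encodes dermatopontin, a small matrix protein that binds collagen fibrils and decorin. It had signals of 112 and 125 on RA arrays 2 and 1, against 381 and 211 on vehicle arrays 2 and 1. Both RA arrays were near each other and below both vehicle arrays, at a log2 change of -1.23 ± 0.30 (limma, adjusted p = 1, unadjusted p = 0.00332). Col1a1, the main chain of type I collagen, had 2264 and 1513 with RA, against 2097 and 1574 with vehicle, and its log2 change was 0.027 ± 0.28, with 0.059 ± 0.29 on the other probe set. Col3a1, the chain of type III collagen, had 2877 and 2167 with RA, against 2870 and 2245 with vehicle (-0.024 ± 0.27). In both genes the arrays of the same number were close, whatever the treatment. The second Col3a1 probe set had 825 and 1043 against 1414 and 1012 (-0.37 ± 0.25), with overlapping groups. The sign of the change of either collagen depended on the scaling: quantile normalization gave -0.075 for Col1a1 and -0.17 for Col3a1, and equal array medians gave 0.12 and 0.066.

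The contractile genes overlapped between the treatments on the deposited scale, although Acta2 was higher on both RA arrays with quantile normalization (0.12). Acta2, smooth muscle alpha actin, had 3339 and 2218 on RA arrays 2 and 1, against 2467 and 2059 on vehicle arrays 2 and 1, a log2 change of 0.27 ± 0.28. This probe set carries the suffix for sequences shared between transcripts, and other actin genes are near-identical, so part of its signal may come from them. A dimmer probe set of Acta2 gave 0.42 ± 0.37. Myh11, smooth muscle myosin heavy chain, had 150 and 216 with RA, against 150 and 175 with vehicle (0.15 ± 0.25), and its second probe set gave -0.16 ± 0.41. The 2 arrays numbered 2 were thus at the same Myh11 signal. Without RA replicate 2 the log2 change of Acta2 was -0.023, and without RA replicate 1 that of Myh11 was -0.10.

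Counted over probe sets, 6 of the 20 were lower on both RA arrays, 2 were higher and 12 overlapped. Over all probe sets tested, 15.2% were lower and 12.7% higher by that rule. The 6 lower ones belonged to Dpt, Foxf1, Tcf21 and 3 of the 4 of Igf1. At an unadjusted p under 0.05 there were 4, all lower, in Dpt, Foxf1 and Igf1, where 1.65% of all probe sets were lower and 1.10% higher at that level. Probe sets of 1 gene share its transcript and are not independent. The choice of members with earlier results known limits these counts as well. The median log2 change of the 10 genes was -0.16, against 0.015 over all genes, and members ranged from -1.23 to 0.28.

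The lower values were larger among the arrays numbered 2. Within that number RA minus vehicle was -1.73 for Dpt, -1.52 for Foxf1, -1.13 for Igf1 and -0.64 for Tcf21 on the log2 scale. Within the arrays numbered 1 it was -0.73, -0.57, -0.43 and -0.30. The direction was the same in both numbers for these 4 genes, as it must be where both RA arrays lie below both vehicle arrays. With 1 array per combination the difference between the numbers has no test. Without vehicle replicate 2 the log2 changes of Dpt and Tcf21 were -0.81 and -0.17, and without vehicle replicate 1 they were -1.65 and -0.77. For Foxf1 the extremes were -1.33, with RA replicate 1 left out, and -0.76, with RA replicate 2 left out. With RA replicate 1 left out, the adjusted p was 0.0417 for Dpt and 0.00805 for Foxf1 (limma), but this sets 1 RA array, assumed to vary like the others, against the spread of the vehicle pair alone. With RA replicate 2 left out the values were 0.0761 and 0.256, with vehicle replicate 1 left out 0.841 and 1, and with vehicle replicate 2 left out 1 for both.

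**Figure D2:**
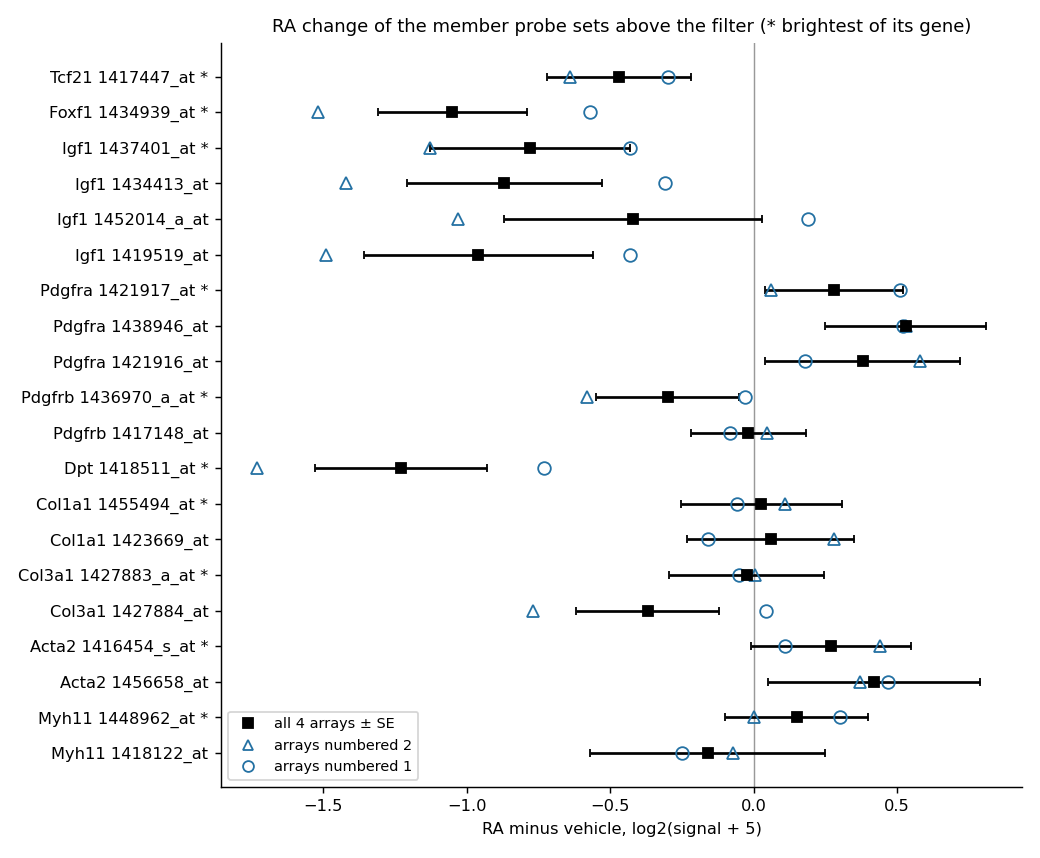
RA minus vehicle on the log2(signal + 5) scale for the 20 member probe sets above the filter; squares with bars are the estimate from all 4 arrays ± SE, open triangles the difference between the arrays numbered 2 and open circles that between the arrays numbered 1. Dpt, Foxf1, Tcf21 and 3 of the 4 Igf1 probe sets, whose groups were apart, necessarily lie below 0 in both numbers. They lie further below in number 2, while those of Col1a1 and Acta2 lie around or above 0.

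The arrays numbered 2 and 1 differed more widely than the treatments did, over all genes and in another set of members. Col1a1, Col3a1 and Acta2 were higher on both arrays numbered 2 than on both numbered 1, by 1.41-fold, 1.3-fold and 1.34-fold. Pdgfrb and Myh11 were lower on both, by 1.29-fold and 1.28-fold on their brightest probe sets, but not on their second ones. The second of Pdgfrb stood at log2 0.046 ± 0.18 with overlapping groups, and that of Myh11 was higher on both. No member passed the adjustment here either (limma, smallest adjusted p = 0.123, for Col1a1), although 157 of 27022 probe sets did, 0.581% of those tested. With treatment as a block, 3 member probe sets were called higher, 2 of Igf1 (limma, adjusted p = 0.0142 and 0.00362) and the dimmer of Myh11 (0.0357). That fit called 1514 of 27022 probe sets higher. Of all genes, 21.4% were higher on both arrays numbered 2 and 30.5% lower, so that 3 of 10 members higher and 2 of 10 lower are near the shares of all genes. At an unadjusted p under 0.05 there were 3 members, all higher, beside 8.00% of all genes higher and 10.8% lower. These counts, too, are of members chosen with earlier results known, and are no test.

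Col1a1 had 2264 and 2097 on RA and vehicle arrays 2, against 1513 and 1574 on RA and vehicle arrays 1, a log2 difference of 0.50 ± 0.14 (limma, unadjusted p = 0.00607), with 0.53 ± 0.16 on its other probe set. For Col3a1 the difference was 0.38 ± 0.14 and for Acta2 0.42 ± 0.17. The differences of these 3 genes depended on the scaling: with quantile normalization they were 0.17, -0.053 and -0.036, and with equal array medians 0.44, 0.32 and 0.36. With quantile normalization Col1a1, Igf1 and Tcf21 were higher on both arrays numbered 2 and Myh11 lower, while Col3a1, Acta2 and Pdgfrb overlapped. The second probe set of Col3a1 stood at 0.072 ± 0.23. Over the 20 member probe sets, 7 were higher and 1 lower at an unadjusted p under 0.05, beside 9.42% of all probe sets higher and 8.92% lower. Probe sets of 1 gene also disagreed among the contractile genes. The dim probe set of Acta2 was lower on the arrays numbered 2, with 22.6 and 16.3 on RA and vehicle arrays 2, against 40.2 and 27.5 on RA and vehicle arrays 1 (-0.66 ± 0.28). The 2 of Myh11 ran opposite ways, at -0.36 ± 0.20 and 0.80 ± 0.25, each with groups apart, so no direction is given for that gene.

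By number, the 4 genes that were lower on both RA arrays differed among the vehicle arrays in 1 direction and among the RA arrays in both. Over all 4 arrays, Igf1 stood at 0.68 ± 0.33, Tcf21 at 0.42 ± 0.23, Dpt at 0.34 ± 0.46 and Foxf1 at -0.093 ± 0.41, all with groups that overlapped on the brightest probe set. Vehicle array 2 exceeded vehicle array 1 in all 4, by log2 0.84 for Dpt, 1.03 for Igf1, 0.60 for Tcf21 and 0.38 for Foxf1. Between the RA arrays the same differences were -0.16, 0.33, 0.25 and -0.57. Pdgfra stood at 0.28 ± 0.18. The median over the 10 members was 0.36, against -0.056 over all genes, and 0.051 with quantile normalization.

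**Figure D3:**
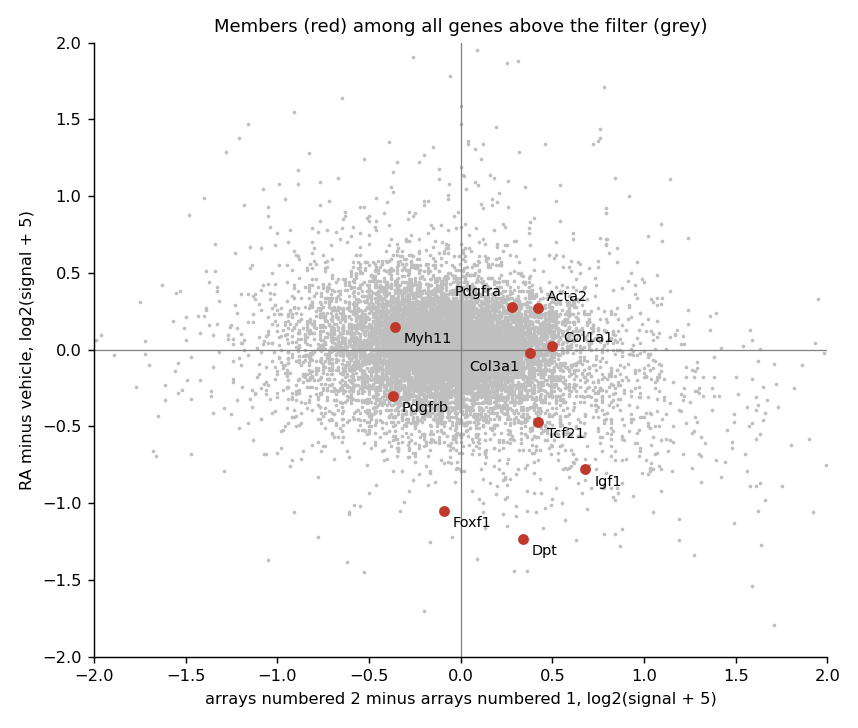
Each grey point is 1 of 13011 genes above the filter and each red point a member, by its difference between arrays numbered 2 and numbered 1 (horizontal) and between RA and vehicle (vertical), both on the log2(signal + 5) scale; 28 genes lie outside the plotted range of 2 in either direction. Dpt, Foxf1, Igf1 and Tcf21 lie below most genes, from -1.23 to -0.47 on the vertical axis, and Col1a1, Col3a1 and Acta2 lie to the right of 0 near the horizontal line.

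Other genes of the same functions were read from lists, each gene by its brightest probe set, and none passed the adjustment with RA. Of all genes, 12.6% were lower on both RA arrays and 14.1% higher, the shares beside which the counts of the lists stand. Of 16 other mesenchymal transcription factors above the filter, 3 were lower on both RA arrays and 1 was higher, with a median of -0.057 that was 0.029 with equal array medians. The smallest p belonged to Maf, a bZIP factor, with signals of 479 and 424 on RA arrays 2 and 1, against 1147 and 626 on vehicle arrays 2 and 1, a log2 change of -0.90 ± 0.29. As in Dpt and Igf1, vehicle array 2 was the highest. Nr2f2, a nuclear receptor of steroidogenic and stromal progenitors, followed at -0.48 ± 0.28 with overlapping groups. Of 29 other matrix genes, 3 were lower on both RA arrays and 1 higher, with a median of 0.04. Col15a1, a basement membrane collagen, stood at -0.42 ± 0.25, and Tnc, the adhesion-modulating glycoprotein tenascin C, at 0.62 ± 0.38.

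Of 18 other contractile genes, 2 were lower on both RA arrays and 0 higher (12.6% and 14.1% of all genes), with a median of 0.042. Myocd, the myocardin coactivator of serum response factor, had 195 and 217 on RA arrays 2 and 1, against 288 and 321 on vehicle arrays 2 and 1 (-0.55 ± 0.20), and Des, the intermediate filament desmin, stood at 0.80 ± 0.44. Of 10 other PDGF signalling genes 1 was higher, Pdgfrl, a receptor-like protein, at 0.56 ± 0.29, and 0 were lower, with Pik3r1, a regulatory subunit of phosphoinositide 3-kinase, at -0.51 ± 0.29. Of 12 genes of the insulin-like growth factor axis, 1 was higher and 1 lower. Igfbp7, a secreted binding protein, had 1191 and 1436 on RA arrays 2 and 1, against 900 and 903 on vehicle arrays 2 and 1, a log2 change of 0.53 ± 0.21, in the other direction from Igf1. Igfbp6 stood at 0.69 ± 0.36. Of 7 pericyte markers, Rgs5, a regulator of G protein signalling, was the 1 higher (0.72 ± 0.37) and the receptor gene Notch3 the 1 lower (-0.50 ± 0.28). Of 5 fibroblast surface genes the groups overlapped in all, with Cd34 at -0.52 ± 0.33 and Pdpn at -0.21 ± 0.23.

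By number, 21.4% of all genes were higher on both arrays numbered 2 and 30.5% lower, the shares beside which the counts of the lists stand. The contractile list ran in a mixed way, as its members did. Of 18 genes 8 were lower on both arrays numbered 2 and 5 higher. Lmod1, the actin nucleator leiomodin of smooth muscle, fell to 61.5 and 58.5 on RA and vehicle arrays 2, against 159 and 145 on RA and vehicle arrays 1 (log2 -1.27 ± 0.21, limma, adjusted p = 0.0344). Cnn1, smooth muscle calponin, had 34.4 and 18.1 against 89.2 and 56.8 (-1.34 ± 0.32, limma, adjusted p = 0.0907). Both directions held with either other scaling. Of the 29 matrix genes 16 were higher on both arrays numbered 2 and 3 lower, led by Sparc, a collagen-binding glycoprotein, at 0.71 ± 0.16 (0.24 with quantile normalization) and Fbln5, an elastic fibre protein, at 0.72 ± 0.21. Among the PDGF genes 8 of 10 were higher on both and 0 lower, but 6 were higher and 0 lower with either other scaling. Of these the ligand gene Pdgfd rose to 89.3 and 119 on RA and vehicle arrays 2, against 26.9 and 22.9 on RA and vehicle arrays 1 (log2 1.86 ± 0.25, limma, adjusted p = 0.0149), and the adaptor gene Grb2 stood at 0.87 ± 0.22. Of the 12 insulin-like growth factor genes 3 were higher and 2 lower, with the binding protein genes Igfbp5 at 0.74 ± 0.16 and Igfbp2 at -0.58 ± 0.17. Of the 16 transcription factors 7 were higher and 2 lower, with Foxd1 at -0.75 ± 0.27 and Nr2f2 at 0.59 ± 0.22. Of the pericyte markers 1 was higher and 3 lower, with the peptidase gene Anpep at 0.83 ± 0.27 and the channel subunit gene Abcc9 at -0.55 ± 0.21.

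**Figure D4:**
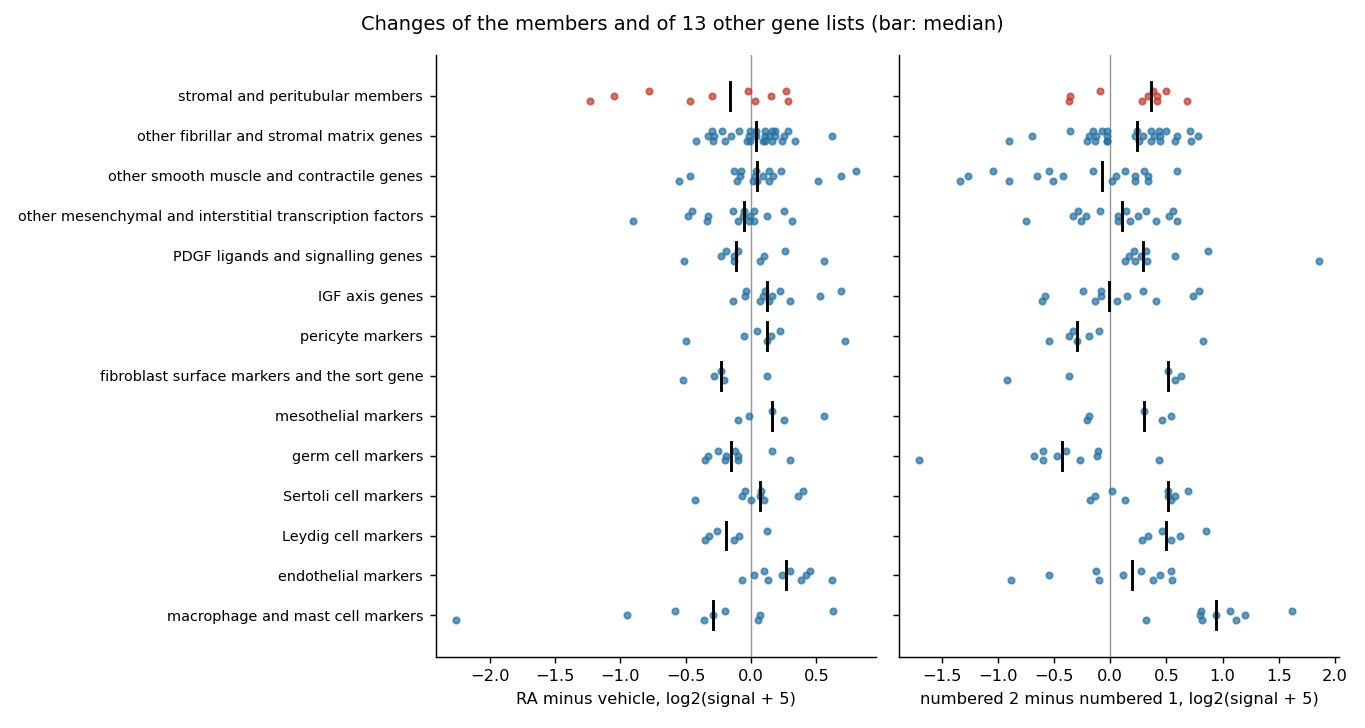
Log2 differences of the 10 members (red) and of the genes above the filter on 13 other lists (blue), RA minus vehicle on the left and arrays numbered 2 minus numbered 1 on the right; black bars are medians. The lowest members reach further below 0 on the left than the other stromal lists. The member median there, -0.16, is not the lowest. It is -0.23 for the fibroblast surface list, -0.20 for Leydig and -0.29 for macrophage and mast cell markers. The macrophage and mast cell list has the highest median on the right, 0.94.

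Genes that mark other cells of the testis were compared on the same arrays. Germ cell genes ran from bright to dim. Ddx4 had 1121 to 1300 on RA arrays and 1289 to 1305 on vehicle arrays, and Dazl 1296 to 1514 and 1603 to 1606. Dppa3 had 7.96 to 48.3 on RA arrays and 12.6 to 40.3 on vehicle arrays, and Tdrd1 28.4 to 60.8 and 46.4 to 62.4. The members Col1a1, Col3a1 and Acta2 were above Ddx4 on every array. The germ cell gene Sall4, with 2311 to 3776 on RA arrays and 2268 to 2530 on vehicle arrays, was above Col1a1 and Acta2 on every array. Signals of different probe sets cannot be read as relative amounts of RNA. Thy1, the gene of the sorted protein, had 141 and 168 on RA and vehicle arrays 2, against 265 and 329 on RA and vehicle arrays 1 (log2 -0.92 ± 0.20, limma, adjusted p = 0.07), with Nt5e of the same list at 0.63 ± 0.19. The Sertoli factor Sox9 had 534 to 620 with RA and 424 to 446 with vehicle, while Amh, the Sertoli hormone, was below the filter at 7.11 to 9.01 and at 1.66 to 11.9. The summed signal of 6 Leydig markers was 2052 and 1609 on RA arrays 2 and 1, against 2664 and 1434 on vehicle arrays 2 and 1, highest on vehicle array 2 as in Dpt, Igf1 and Tcf21. That of 10 macrophage and mast cell markers was 2922 and 1360, against 4251 and 2035, with the mast cell protease Mcpt1 at 75.6 and 64.5, against 411 and 305. That of 11 Sertoli markers was 7015 and 4930, against 6399 and 4708, higher on both arrays numbered 2 as in the collagens. That of 10 germ cell markers was 8159 and 8080, against 7793 and 8200, and that of 10 endothelial markers 556 and 547, against 419 and 495. By genes above the filter, with RA the groups were apart upward and downward in 0 and 1 of 10 germ cell genes, 1 and 1 of 9 Sertoli genes, 0 and 0 of 6 Leydig genes, 3 and 0 of 10 endothelial genes, 0 and 2 of 9 macrophage and mast cell genes and 1 and 0 of 5 mesothelial genes. By number these counts were 1 and 8 for germ cell, 6 and 0 for Sertoli, 3 and 0 for Leydig, 5 and 1 for endothelial, 7 and 0 for macrophage and mast cell and 2 and 0 for mesothelial genes. Of all genes, 14.1% and 12.6% were apart upward and downward with RA, and 21.4% and 30.5% by number. The part of other cells in the differences of the members was not tested.

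Among single markers, the steroidogenic genes Star (443 and 467 on RA arrays 2 and 1, against 521 and 335 on vehicle arrays 2 and 1) and Cyp17a1 (36.7 and 34.9, against 64.9 and 29.3) overlapped between the treatments. So did the endothelial genes Pecam1 (55.3 and 43.1, against 32.2 and 50.9) and Cdh5 (42.5 and 22.3, against 28.9 and 27.2) and the leukocyte gene Ptprc (162 and 104, against 179 and 85). By the smallest p with RA, the lists were led by Wt1 at 0.56 ± 0.20 and Krt19 at 0.25 ± 0.24 for mesothelium, Hsd3b1 at -0.32 ± 0.30 and Nr5a1 at -0.35 ± 0.37 for Leydig cells, Tek at 0.62 ± 0.35 and Robo4 at 0.45 ± 0.27 for endothelium, Sall4 at 0.30 ± 0.30 and Dnd1 at -0.35 ± 0.35 for germ cells, Gstm6 at -0.43 ± 0.25 beside Sox9 for Sertoli cells, and Mcpt4 at -0.95 ± 0.39 beside Mcpt1. On the mesothelial list only Wt1 had groups apart, while Msln, Upk3b and Upk1b stood at -0.012, 0.16 and -0.10, so Wt1 does not speak for the list. By number, 3 of the leading genes passed the adjustment besides Cyp11a1 (0.85 ± 0.15, limma, adjusted p = 0.0471): the mast cell peptidase gene Cpa3 at 1.62 ± 0.20, the myeloid adaptor gene Tyrobp (limma, adjusted p = 0.0355) and the germ cell gene Dppa3 at -1.70 ± 0.27. The others were Elavl2 at -0.60 ± 0.19, Ptgds at 0.69 ± 0.16, Aard at 0.58 ± 0.15, Nr5a1 at 0.62 ± 0.28, Flt1 at -0.88 ± 0.20, Emcn at 0.54 ± 0.27, Msln at 0.46 ± 0.21 and Upk1b at 0.54 ± 0.29. Dppa3 averaged 44.3 on the arrays numbered 1 but 10.3 on those numbered 2, under the 15.5 of the filter. It thus passed the filter only through the arrays where it was high, and no weight is put on its adjusted p. The 3′ over 5′ signal ratio, which reflects RNA integrity and amplification, was 2.32 and 2.08 for the control transcript Actb on RA arrays 2 and 1, against 1.73 and 1.72 on vehicle arrays 2 and 1. For the control transcript Gapdh it was 2 and 1.85, against 1.47 and 1.56. The ratio was thus higher on both RA arrays for either transcript, and its part in the values of the members was not tested.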

How the data were processed

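Per the labels, each sample gave 75 ng of RNA for amplification and was hybridised to 1 Affymetrix mouse array read with GCOS 1.2. The deposited values are linear intensities, 1 for every probe set. The method that summarised probes was not given in the sources used here. Trimmed means were equal on the 4 arrays, so no further normalization was applied.

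After 64 control probe sets were left out, log2(intensity + 5) was fitted with limma 3.58.1 in R 4.3.3 (eBayes with an intensity trend, two-sided, Benjamini-Hochberg), RA against vehicle and, in a separate fit, number 2 against number 1. Probe sets were kept when their mean log2 value reached the 40th percentile. Each fit has 2 residual degrees of freedom. The fit was run on simulated arrays, with noise that was independent between arrays and smaller than the spread within groups here. That run checks the code and not the power with these 4 arrays. A gene was named from the platform annotation, updated through Entrez IDs, and read from its brightest probe set. Named genes are all members, the 2 smallest p of each other list and comparison, and fixed markers; the mesothelial, germ, Sertoli, Leydig, endothelial, macrophage and mast cell lists served as checks. The members and lists were chosen with earlier results of these data known. The motifs were chosen after the sequences were seen. Alternatives covered scaling, pseudocount, filter, variance model, block, probe set types and each array left out. Figures used matplotlib 3.10.9.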

Additional observations from a re-analysis of the deposited data

Results flagged for a closer look

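In 9 of the 20 member probe sets above the filter a difference ran in opposite directions in the 2 groups in which it could be read, with 1 array on each side; none of these contrasts between groups was tested. RA minus vehicle, on the log2 scale, was -1.03 in number 2 and 0.19 in number 1 for the fourth Igf1 probe set, 0.047 and -0.083 for the second of Pdgfrb, 0.11 and -0.057 for the brightest of Col1a1, 0.28 and -0.16 for its other, 0.0035 and -0.051 for the brightest of Col3a1, and -0.77 and 0.043 for its other. The number 2 minus number 1 difference was -0.16 with RA and 0.84 with vehicle for Dpt, -0.57 and 0.38 for Foxf1, -0.069 and 1.04 for the second Igf1 probe set, 0.11 and -0.019 for the second of Pdgfrb, and -0.34 and 0.48 for the second of Col3a1.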

How the results depend on the processing

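With RA, Dpt, Foxf1, Igf1 and Tcf21 kept their negative sign and Pdgfra its positive one under both other scalings. Even so, Igf1, Tcf21 and Pdgfra overlapped between groups with quantile normalization. Their groups were apart on the deposited scale, so no pseudocount, filter, variance model, block or left-out array could turn these signs. The cause of the moves below was not tested. With the replicate block, 543 probe sets were called. Among them were 5 member probe sets, of Dpt (limma, adjusted p = 2.8e-07), Foxf1 (1.11e-05) and Igf1 (0.013 on its brightest). By number 3007 were called with treatment as a block, among them probe sets of Igf1 and Myh11. The block fit took its variance entirely from the trend. Same-numbered samples deviated together (r = 0.526 over probe sets), but 2 pairs do not show that the numbers pair the samples. Calls with RA numbered 0 to 152 without 1 array, and by number 172 to 1463. By number there were 431 with equal array medians, 91 with the stricter filter, 258 with unshared probe sets, 40 with no intensity trend and 0 with no filter (7116 at an unadjusted p under 0.05). Groups that do not overlap would give 7546 with RA and 13620 by number, and a 2-fold gap 45 with RA. The members' median ranged from -0.25 to -0.063 with RA and from 0.11 to 0.41 by number without 1 array; by number it was 0.051 with quantile normalization and 0.18 with unshared probe sets. Equal array medians moved the median of all genes to 0.10 with RA and -0.11 by number. Signs turned with quantile normalization for Col1a1 with RA (-0.075) and for Foxf1 (0.0033), Col3a1 (-0.053) and Acta2 (-0.036) by number, and with equal array medians for Col3a1 with RA (0.066). Without 1 array, ranges with RA were -0.62 to 0.015 for Pdgfrb, -0.26 to 0.32 for Col1a1, -0.23 to 0.18 for Col3a1, -0.023 to 0.57 for Acta2 and -0.10 to 0.40 for Myh11, and by number -0.52 to 1.20 for Dpt and -0.86 to 0.67 for Foxf1. Without vehicle replicate 2, Col1a1, Col3a1 and Acta2 were called by number (limma, adjusted p = 0.0105, 0.0265 and 0.00231), with 1 array numbered 2 set against the spread of the pair numbered 1; with any other array left out the lowest adjusted p was 0.0679, 0.0638 and 0.246. Without RA replicate 2, 1 probe set of Igf1 was called by number, likewise with 1 array numbered 2.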
